A study of Mus musculus with 6 samples.

Results

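Milk fat is built partly from fatty acids that the mammary gland takes from the blood, and 5 genes of that supply route are described here: Lpl, Cd36, Fabp3, Fabp4 and Acsl1. They were chosen by name, make up 5 of the 17739 genes in the expression table, and all 5 passed the filter for testing. RNA came from mammary epithelial organoids, which are fragments of mammary epithelium freed with collagenase and pronase from glands of mice on the first day of lactation. One group was 3 mice with a conditional knockout of Nmi (genotype Nmi-/-), an interferon-inducible gene whose protein binds Myc and STAT proteins, and the other was 3 wild-type mice. Both genotypes were on the FVB background and no treatment was named, with 1 library per mouse. The labels give neither the age of the mice, nor the promoter that drove the deletion, nor the deleted exons. Per the series' description, the study asked how loss of Nmi leads to excess proliferation of the gland in puberty and lactation.

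In the lactating gland, lipoprotein lipase (Lpl) splits the triglycerides of circulating lipoproteins at the capillary wall and releases fatty acids. Cd36, a membrane scavenger receptor that is also a protein of the milk fat globule membrane, helps long-chain fatty acids to enter cells. Inside the cell the small proteins Fabp3 and Fabp4 bind fatty acids in the cytosol, and the long-chain acyl-CoA synthetase Acsl1 joins them to coenzyme A, which commits them to triglyceride synthesis or to oxidation. Fabp3 is the form known from heart, muscle and lactating mammary epithelium, whereas Fabp4 is best known from adipocytes and also occurs in capillary endothelium and macrophages.

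Expression was measured in FPKM, a deposited unit that scales fragments to gene length and to the number mapped. Nmi had 0.188, 0.547 and 0.564 FPKM in knockout replicates 1, 2 and 3, against 4.60, 2.82 and 2.32 FPKM in wild-type replicates 1, 2 and 3 (adjusted p = 0.372, limma), so each knockout library held less Nmi than each wild-type library. Milk protein transcripts (a list of 20 genes) took 63.6% to 76.7% of the FPKM sum in the knockout libraries and 48.0% to 70.8% in the wild-type libraries. Knockout replicate 3 held the highest share and wild-type replicate 1 the lowest, and these 2 libraries were also at the ends of the range for 4 of the 5 genes. The luminal epithelial markers Krt8 and Epcam were abundant in all 6 libraries. Krt8 had 198 to 983 FPKM in the knockout and 647 to 1515 FPKM in wild type, and Epcam had 189.9 to 467 FPKM in the knockout and 392.5 to 578 FPKM in wild type.

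Of the 5 genes, 3 (Cd36, Fabp3 and Acsl1) have a promoter window in the RefSeq table (build GRCm38.p6), running from 250 bases before to 50 bases after a transcript start. Windows are shown for Fabp3 and Acsl1, which moved together across the libraries, and for Cd36, which did not move with them as deposited. Capitals mark the letters AGGTCA, the core letters of sites bound by PPAR and RXR receptors, which drive many fatty acid genes, and GGGCGG, the GC box, which was added to the search after the sequences were seen, each on either strand. The window of Fabp3 is chr4:130308488-130308787 on the plus strand, that of Acsl1 chr8:46470787-46471086 on the plus strand, and that of Cd36 chr5:17835847-17836146 on the minus strand. The Cd36 window lies inside the annotated span of the gene (17781690 to 17888801), so it belongs to an internal start and not to the outermost one. The Fabp3 window begins less than 250 bases before the annotated gene start (130308595), so its transcript start also lies inside the span.
Fabp3: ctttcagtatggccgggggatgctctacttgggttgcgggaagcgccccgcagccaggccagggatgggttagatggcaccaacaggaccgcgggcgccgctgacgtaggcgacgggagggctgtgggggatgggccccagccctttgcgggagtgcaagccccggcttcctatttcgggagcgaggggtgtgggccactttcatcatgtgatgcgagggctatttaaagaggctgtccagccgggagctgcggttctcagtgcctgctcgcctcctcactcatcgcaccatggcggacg
Acsl1: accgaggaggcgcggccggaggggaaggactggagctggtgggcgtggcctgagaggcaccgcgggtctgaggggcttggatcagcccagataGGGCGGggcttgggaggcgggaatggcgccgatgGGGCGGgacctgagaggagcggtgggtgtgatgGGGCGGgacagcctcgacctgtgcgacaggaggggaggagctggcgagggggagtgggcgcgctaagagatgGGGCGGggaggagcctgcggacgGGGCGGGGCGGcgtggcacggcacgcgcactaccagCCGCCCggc
Cd36: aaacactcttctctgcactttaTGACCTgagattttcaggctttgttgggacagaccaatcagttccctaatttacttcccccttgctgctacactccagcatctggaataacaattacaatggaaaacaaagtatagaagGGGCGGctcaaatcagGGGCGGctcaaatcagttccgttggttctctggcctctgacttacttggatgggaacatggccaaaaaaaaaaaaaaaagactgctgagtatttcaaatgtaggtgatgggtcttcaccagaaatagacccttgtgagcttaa

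The Cd36 window held 1 AGGTCA and 2 GC boxes, the Acsl1 window 7 GC boxes, 2 of which share bases, and the Fabp3 window neither. Of all 32851 windows in the table, 16.3% hold AGGTCA and 35.7% a GC box. The direct repeat of AGGTCA with 1 base between the copies and the STAT motif TTCNNNGAA were searched on both strands as well; 0.0396% and 8.30% of all windows hold them, and none of these 3 windows does. The G and C content was 65% for Fabp3, 74% for Acsl1 and 43% for Cd36, with a median of 52.7% over all windows. Acsl1 has a further window from a second start, with no match to any of the motifs.

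Lpl was higher on average in the knockout, but the genotypes overlapped. In build GRCm38 it spans bases 68880491 to 68907448 of chromosome 8 on the plus strand, with 11 exons in its longest annotated transcript. Lpl had 90.3, 72.5 and 237 FPKM in knockout replicates 1, 2 and 3, against 31.3, 60.2 and 144 FPKM in wild-type replicates 1, 2 and 3. The knockout library with the highest milk share was the top of the range, the wild-type library with the lowest share was the bottom, and wild-type replicate 3 exceeded 2 of the 3 knockout libraries. The means were 133 ± 90.1 FPKM in the knockout and 78.5 ± 58.6 FPKM in wild type (SD, n = 3 each). The log2 fold change, knockout over wild type on the log2(FPKM + 1) scale, was 0.83 (SE 0.55, 95% confidence interval -0.39 to 2.05), with an adjusted p of 0.768 (limma, Benjamini-Hochberg over the 9767 genes tested). The exact permutation test of Lpl alone gave p = 0.4, where the smallest value that 3 against 3 mice allow is 0.1.

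Cd36 varied least among the 5 genes. It lies on chromosome 5 at 17781690 to 17888801, on the minus strand. Cd36 had 134, 147 and 127 FPKM in knockout replicates 1, 2 and 3, against 111, 129 and 130.4 FPKM in wild-type replicates 1, 2 and 3. Wild-type replicate 1 was the lowest and knockout replicate 2 the highest, and the remaining libraries lay between 127 and 134 FPKM. The highest library held 1.33 times the lowest, and 9.95% of the genes tested had a smaller range on the log2(FPKM + 1) scale. The means were 136 ± 10.7 FPKM in the knockout and 123.5 ± 11.2 FPKM in wild type (SD, n = 3 each). Knockout minus wild type was 0.14 in log2 units (SE 0.27, 95% confidence interval -0.46 to 0.74; adjusted p = 0.831, limma; exact permutation p = 0.3). The narrow range belongs to the values as deposited. Scaled to the FPKM sum outside the milk protein list, Cd36 stood at 166 in knockout replicate 3 and 87.3 in wild-type replicate 1, a ratio of 1.90 between the highest and the lowest library.

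Fabp3 was the most abundant of the 5 on average. It lies on chromosome 4 at 130308595 to 130315463, on the plus strand, with 4 exons. Fabp3 had 419.8, 251 and 1097 FPKM in knockout replicates 1, 2 and 3, against 174, 245 and 556 FPKM in wild-type replicates 1, 2 and 3. Replicate 3 was the highest library within each genotype, and knockout replicate 3 was far above the other 5 libraries, which overlapped. The means were 589 ± 447 FPKM in the knockout and 325 ± 203 FPKM in wild type (SD, n = 3 each). Knockout minus wild type was 0.76 in log2 units (SE 0.56, 95% confidence interval -0.47 to 1.99; adjusted p = 0.768, limma; exact permutation p = 0.4). Without knockout replicate 3 the knockout mean was 336 FPKM. On the opposite strand Fabp3 overlaps Zcchc17, which had 2.84 to 3.88 FPKM in the knockout and 2.11 to 3.61 FPKM in wild type. The sources used here do not say whether reads were assigned by strand. A stretch of 402 bases of its 823-base transcript matches the pseudogene Fabp3-ps1 at 95% identity or more, so reads there could have been split.

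Fabp4 ran the other way, with a lower mean in the knockout. It lies on chromosome 3 at 10204088 to 10208576, on the minus strand, with 4 exons. Fabp4 had 264, 440.4 and 157 FPKM in knockout replicates 1, 2 and 3, against 672, 498 and 212 FPKM in wild-type replicates 1, 2 and 3. Knockout replicate 3 was the lowest library and wild-type replicate 1 the highest, the reverse of Lpl and Fabp3, and the genotypes again overlapped. The means were 287 ± 143 FPKM in the knockout and 461 ± 232 FPKM in wild type (SD, n = 3 each). Knockout minus wild type was -0.65 in log2 units (SE 0.49, 95% confidence interval -1.72 to 0.42; adjusted p = 0.768, limma; exact permutation p = 0.4). Without knockout replicate 3 the knockout mean was 352 FPKM, and without wild-type replicate 1 the wild-type mean was 355 FPKM.

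Acsl1 resembled Lpl. It lies on chromosome 8 at 46471037 to 46536051, on the plus strand, with 21 exons in its longest annotated transcript. Acsl1 had 98.3, 68.4 and 199 FPKM in knockout replicates 1, 2 and 3, against 24.7, 91.2 and 106 FPKM in wild-type replicates 1, 2 and 3. Wild-type replicate 1 was far below the other 5 libraries, and the highest library held 8.05 times its level, the widest range of the 5 genes. The means were 122 ± 68.3 FPKM in the knockout and 74.1 ± 43.4 FPKM in wild type (SD, n = 3 each). Knockout minus wild type was 0.81 in log2 units (SE 0.54, 95% confidence interval -0.38 to 2.00; adjusted p = 0.768, limma; exact permutation p = 0.5). Without wild-type replicate 1 the wild-type mean was 98.8 FPKM.

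**Figure D1:**
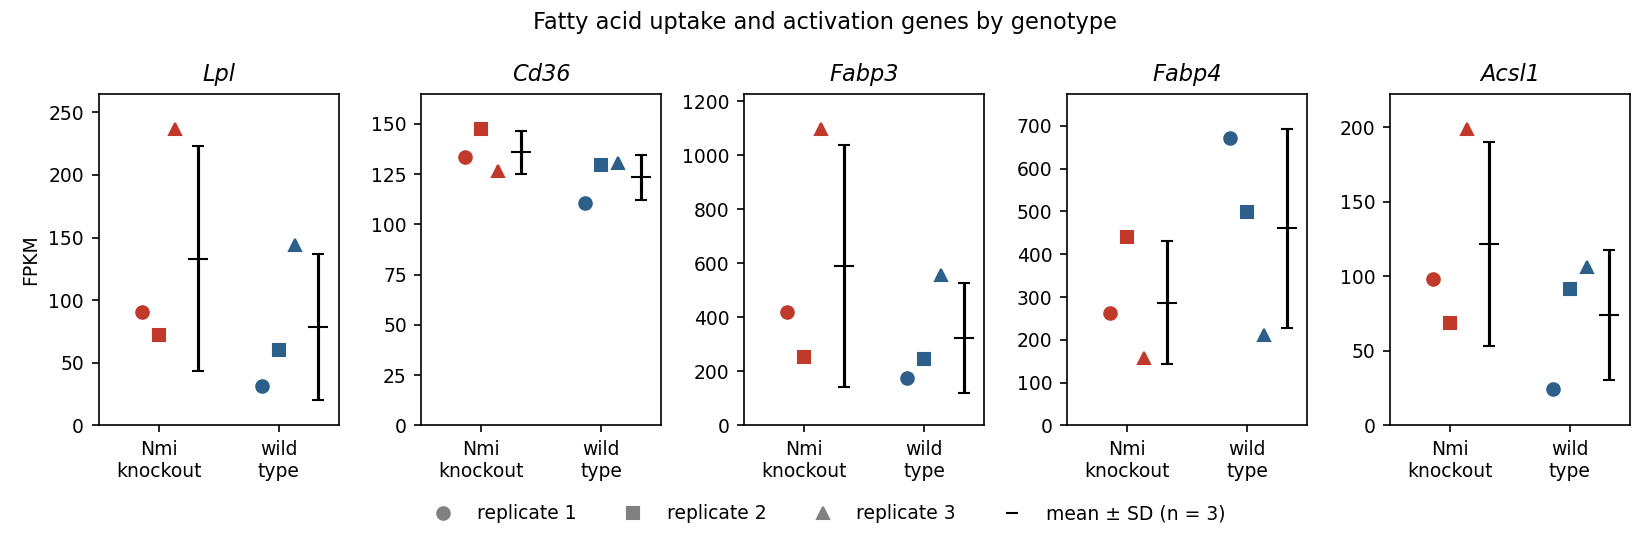
FPKM of the 5 genes in each library, on linear axes that start at 0 and differ between panels. Points are libraries, with the replicate number by shape, and bars are the mean ± SD of 3 mice; the genotypes overlap in every panel, Cd36 varies least, and knockout replicate 3 is the highest library for Lpl, Fabp3 and Acsl1 and the lowest for Fabp4.

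None of the 5 genes passed the adjusted threshold of 0.05, and none separated the genotypes without overlap. Among all 9767 genes tested, 0 passed it (0% of those tested), 130 had an unadjusted p under 0.05 (1.33%; 0.184% higher and 1.15% lower in the knockout) and 450 did not overlap between genotypes (4.61%; 0.778% higher and 3.83% lower in the knockout). Of the 130, 18 were higher and 112 lower in the knockout, whereas trimmed-mean rescaling gave 97 higher and 77 lower. A count of 0 among 5 genes is near that background. Over all genes tested, the log2 fold change had a median of -0.21 in the deposited values. Relative to that median, the log2 fold changes were 1.03 for Lpl, 0.35 for Cd36, 0.97 for Fabp3, -0.44 for Fabp4 and 1.02 for Acsl1. The direction of Lpl, Fabp3, Fabp4 and Acsl1 rested on the libraries at the 2 ends. Without both knockout replicate 3 and wild-type replicate 1 the log2 fold changes were -0.20 for Lpl, -0.18 for Fabp3, 0.068 for Fabp4 and -0.26 for Acsl1. Leaving out knockout replicate 3 alone brought Lpl to 0.31, Fabp3 to 0.18, Fabp4 to -0.28 and Acsl1 to 0.39. Leaving out wild-type replicate 1 alone brought Lpl to 0.31, Fabp3 to 0.40, Fabp4 to -0.30 and Acsl1 to 0.16.

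**Figure D2:**
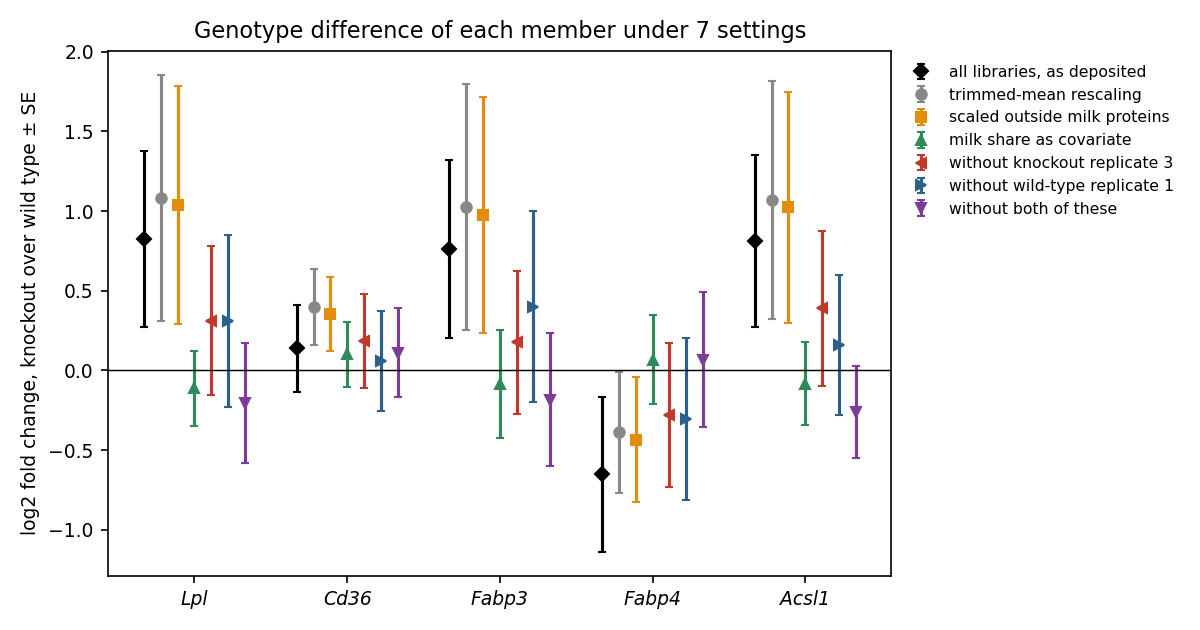
Log2 fold change of each gene, knockout over wild type, with its standard error, under 7 settings. Lpl, Fabp3 and Acsl1 lie above 0 and Fabp4 below 0 with all libraries. All 4 change side when the milk share is a covariate or both end libraries are left out, where their standard errors span 0. Cd36 stays above 0, from 0.06 without wild-type replicate 1 to 0.40 after trimmed-mean rescaling.

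Across the 6 mice, 4 of the 5 genes varied with the share of milk protein transcripts in the library. The share of all genes tested that did so is given below for rho only. Lpl and Fabp3 had the same order as the milk share in all 6 libraries, and Fabp4 had the exact reverse. For Lpl, Pearson's r of the log2 level with the milk share was 0.979 (exact permutation p = 0.00139) and Spearman's rho was 1 (exact permutation p = 0.00278, the smallest that 6 libraries allow). For Fabp3, r was 0.923 (exact permutation p = 0.00833) and rho was 1 (exact permutation p = 0.00278). For Fabp4, r was -0.943 (exact permutation p = 0.00278) and rho was -1 (exact permutation p = 0.00278). Acsl1 had r = 0.966 (exact permutation p = 0.00556) and rho = 0.943 (exact permutation p = 0.0167), since wild-type replicate 2 exceeded knockout replicate 2. Cd36 had r = 0.513 (exact permutation p = 0.269) and rho = 0.2 (exact permutation p = 0.714).

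These 5 relations were tested together with those of all other genes. After Benjamini-Hochberg adjustment over the 9767 genes, the permutation p of r was 0.0468 for Lpl, 0.0489 for Fabp3, 0.0475 for Fabp4 and 0.0483 for Acsl1. That of rho was 0.0356 for Lpl, Fabp3 and Fabp4 and 0.0594 for Acsl1. By rho, 0.287% of the genes tested had an adjusted p under 0.05 with a positive relation and 7.52% with a negative one. The share of genes under 0.05 by r was not counted, so the adjusted r of the 4 genes has no background beside it. FPKM is relative to the fragments mapped and the milk share to the FPKM sum, so both depend on the rest of the library. The background was uneven: 28 genes (0.287%) had the same order as the milk share and 734 (7.52%) the reverse. Lpl and Fabp3 thus shared their order with few genes, and Fabp4 with many. Without wild-type replicate 1 and knockout replicate 3, the 2 libraries farthest from the median milk share, r over the remaining 4 was 0.988 for Lpl, 0.975 for Fabp3, -0.981 for Fabp4, 0.623 for Acsl1 and -0.252 for Cd36. Within each genotype, Lpl, Fabp3 and Acsl1 were in the order of the milk share and Fabp4 was in the reverse order. For Lpl, Fabp3 and Fabp4 this follows from their order over all 6 libraries and is no further check. The same holds for Acsl1, whose departure from the order was between libraries of different genotypes. The FPKM sum outside the milk proteins was itself lower in each library with a higher milk share, so dividing by it could not change the order of Lpl and Fabp3 and raises every other gene with the milk share. On that scale r of Cd36 was 0.967 instead of 0.513, which therefore says nothing of Cd36 apart from the scaling. Fabp4, which this scaling works against, kept its reverse order with r = -0.903. With the milk share as a covariate, the log2 fold changes between genotypes were -0.11 (SE 0.24) for Lpl, -0.088 (SE 0.34) for Fabp3 and 0.068 (SE 0.28) for Fabp4. They were -0.084 (SE 0.26) for Acsl1 and 0.10 (SE 0.20) for Cd36. Each was smaller than its standard error, so its sign is not settled. The milk share also ran higher in the knockout, so this fit cannot tell the 2 apart.

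**Figure D3:**
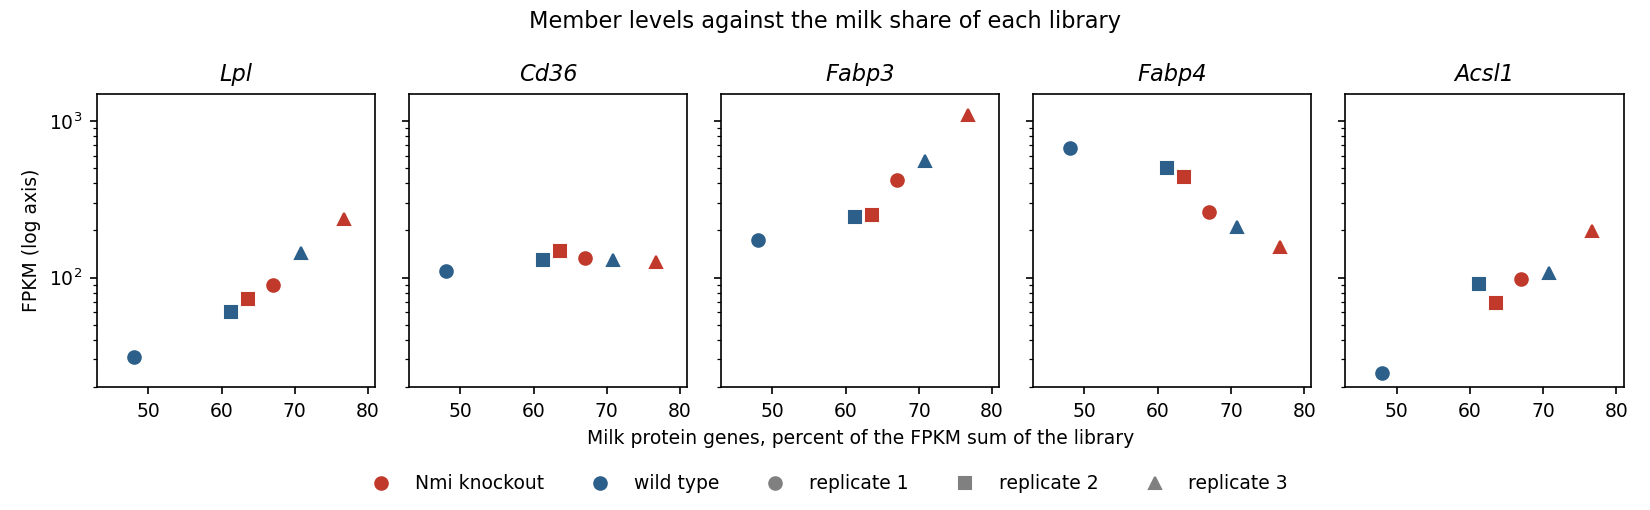
FPKM of each gene on a log axis against the percentage of the library's FPKM sum held by 20 milk protein genes. Points are libraries, coloured by genotype with the replicate number by shape; Lpl, Fabp3 and Acsl1 climb from wild-type replicate 1 at 48.0% to knockout replicate 3 at 76.7%, Fabp4 descends, and Cd36 is nearly level in these deposited values.

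Ratios between the genes within a library do not depend on library totals or scaling. Lpl per Fabp3 was 0.215, 0.288 and 0.216 in knockout replicates 1, 2 and 3, against 0.180, 0.246 and 0.259 in wild-type replicates 1, 2 and 3. This ratio spanned 1.60 times from the lowest to the highest library, whereas Lpl alone spanned 7.56 times and Fabp3 alone 6.32 times. Lpl per Acsl1 spanned 2.05 times and Fabp3 per Acsl1 2.62 times. Fabp3 per Fabp4 was 1.59, 0.571 and 6.997 in knockout replicates 1, 2 and 3, against 0.259, 0.492 and 2.62 in wild-type replicates 1, 2 and 3, a span of 27.1 times. In replicates 1 and 3 of the knockout and replicate 3 of wild type Fabp3 was the higher of these binding proteins, and in the other 3 libraries Fabp4 was. The 10 pairwise ratios gave exact permutation p for the difference between genotypes from 0.3 (Cd36 per Fabp4) to 1, where 0.1 is the smallest possible.

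By level, Fabp3 (mean of 6 libraries 457 ± 343 FPKM, SD) came first, followed by Fabp4 (374 ± 197), Cd36 (129.6 ± 11.9), Lpl (106 ± 74.2) and Acsl1 (97.9 ± 57.5). FPKM is per length, which lets genes be compared only roughly here. The annotation used is not named, and reads of Fabp3 could have been split with Fabp3-ps1. Fabp4 exceeded Cd36 in 6 of 6 libraries, but Fabp3 exceeded Fabp4 in only 3 of 6, Cd36 exceeded Lpl in 4 of 6 and Lpl exceeded Acsl1 in 4 of 6, so these neighbours were not separated. Lpl, Acsl1, Fabp3 and Fabp4 had wide ranges among the libraries on the log2(FPKM + 1) scale, with 99.4%, 99.5%, 99.0% and 96.8% of the genes tested having a smaller one. That scale narrows the ranges of low genes, and by mean level these 4 ranked from 37 (Fabp3) to 208 (Acsl1) among the genes tested.

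The genes whose profile over the 6 libraries was closest to each member were sought among 9460 genes. The measure was the root mean square difference of log2(FPKM + 1) values centred on each gene's mean. That scale shrinks the changes of low genes, among them Egf (0.552 to 9.25 FPKM) and Angpt1 (1.00 to 14.9 FPKM) below. Closest to Lpl were the casein gene Csn1s2b (0.19 log2 units), Insig1, which holds back sterol-regulated transcription factors (0.19), and the transferrin receptor gene Tfrc (0.20), with Fabp3 next (0.21). The root mean square deviation of Lpl from its own mean was 0.91. Closest to Fabp3 were the growth factor gene Egf (0.12), the fatty acid elongase gene Elovl5 (0.18) and Cel, which encodes the bile salt-stimulated lipase of milk (0.20). Closest to Acsl1 were Bhlha15, a transcription factor gene of secretory cells (0.18), Angpt1, a ligand of the endothelial receptor Tie2 (0.19), and Gldc, of the glycine cleavage system (0.20). Closest to Fabp4 were Emp1, a membrane protein gene (0.14), Rab31, of vesicle transport (0.14), and Myl6, a myosin light chain gene (0.14). Cd36 hardly moved from its own mean (0.12). The genes nearest to it, Mtg1, Osbpl10 and Wdr7 (0.04 to 0.05), were thus others with small ranges on the log2(FPKM + 1) scale. Mtg1 and Wdr7 were low, at 0.847 to 1.66 FPKM. Csn1s2b and Cel are in the milk protein list, so they share values with the milk share above.

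Fabp4, Cd36 and Lpl are known from other cell types too, so markers of these were summed in each library. Of 12 adipocyte markers 11 were in the table, and 8 of them, among them Adipoq and Plin1, stayed under 0.2 FPKM in all 6 libraries. The adipocyte sum was 8.92 to 19.3 FPKM in the knockout and 11.9 to 24.7 FPKM in wild type, most of it Lipe, a lipase gene that other tissues express as well. Gapdh, a gene that every cell uses, was also listed at 0 to 0.0769 FPKM in this table, so entries at or near 0 can be failed estimates, and the part of adipocyte RNA in the Fabp4 values was not tested. Endothelial markers were present, with all 12 tested and sums of 120, 169 and 86.7 FPKM in knockout replicates 1, 2 and 3, against 183, 165 and 95.9 FPKM in wild-type replicates 1, 2 and 3. Like Fabp4, the endothelial sum was highest in wild-type replicate 1 and lowest in knockout replicate 3. Fabp4 stood at 11.7, 11.3 and 8.17 times the level of the endothelial cadherin gene Cdh5 in knockout replicates 1, 2 and 3, against 18.8, 14.8 and 10.3 times in wild-type replicates 1, 2 and 3. The luminal epithelial sum was also highest in wild-type replicate 1 and lowest in knockout replicate 3, with 2925, 3732 and 1180 FPKM in knockout replicates 1, 2 and 3, against 5901, 3902 and 2882 FPKM in wild-type replicates 1, 2 and 3. Fabp4 per Krt8 ran differently from Fabp4 per Cdh5, with 0.443, 0.448 and 0.792 in knockout replicates 1, 2 and 3, against 0.443, 0.537 and 0.327 in wild-type replicates 1, 2 and 3. Knockout replicate 3 was thus the lowest library relative to Cdh5 and the highest relative to Krt8. It was also the highest relative to the keratin gene Krt18, at 0.745. Other markers of the same lists ran otherwise. Fabp4 was below the luminal gene Elf5 only in knockout replicate 3 (157 against 207 FPKM), so relative to Elf5 that library was the lowest. Relative to the endothelial gene Cldn5, Fabp4 was lower in wild-type replicate 3 (212 against 31.6 FPKM) than in knockout replicate 3 (157 against 20.4 FPKM). The part of endothelial or luminal RNA in the Fabp4 values was not tested, and in bulk RNA fewer cells of a type and less RNA per cell cannot be told apart. Macrophage markers summed to 14.0 to 27.8 FPKM in the knockout and 14.5 to 20.4 FPKM in wild type, with 3 of 11 under 0.2 FPKM throughout and Cd68 and Lyz2 the highest. Skeletal muscle markers, of interest because muscle is rich in Fabp3, summed to 0.914 to 7.56 FPKM in the knockout and 2.04 to 4.21 FPKM in wild type, and 8 of 11, the creatine kinase gene Ckm among them, were under 0.2 FPKM throughout. Fibroblast markers summed to 33.1 to 60.3 FPKM in the knockout and 23.0 to 53.1 FPKM in wild type. Basal epithelial markers summed to 342 to 1218 FPKM in the knockout and 433 to 907 FPKM in wild type.

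Partners of lipoprotein lipase and receptors of lipoproteins formed the first of 5 lists of other genes of the route. Of its 22 genes 16 were tested, 0 passed the adjusted threshold, and the median log2 fold change was -0.12, beside -0.21 over all genes. Angptl4, which encodes a secreted inhibitor of the lipase, had 341, 359.5 and 43.7 FPKM in knockout replicates 1, 2 and 3, against 460, 416 and 326 FPKM in wild-type replicates 1, 2 and 3. Knockout replicate 3 alone was far below the other 5 libraries, and it was the library with the most Lpl. Lpl per Angptl4 was 5.41 there, and 0.068 to 0.442 in the other 5. The log2 fold change of Angptl4 was -1.17 (SE 0.66; adjusted p = 0.768, limma), and -0.18 without knockout replicate 3. Gpihbp1, the endothelial protein that carries the lipase to the capillary lumen, had 13.5, 21.2 and 14.8 FPKM in knockout replicates 1, 2 and 3, against 15.0, 20.03 and 11.2 FPKM in wild-type replicates 1, 2 and 3, with full overlap. Apoc1, an apolipoprotein that inhibits the lipase, had 6.47 ± 2.95 FPKM in the knockout and 13.8 ± 4.08 FPKM in wild type (SD, n = 3 each; log2 fold change -1.03, unadjusted p = 0.0115, adjusted p = 0.768, limma). The receptor gene Vldlr had 1.61 ± 0.134 FPKM in the knockout and 2.65 ± 0.671 FPKM in wild type (SD, n = 3 each) without overlap (adjusted p = 0.768, limma). The lysosomal acid lipase gene Lipa had 134 ± 65.2 FPKM in the knockout and 128 ± 27.9 FPKM in wild type, and Apoe had 58.0 ± 5.12 FPKM in the knockout and 50.3 ± 10.2 FPKM in wild type. Apoc2, the cofactor that activates the lipase, was listed at or near 0 in all libraries.

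Among other fatty acid transporters (12 listed), 0 of 9 tested genes were called, and the median log2 fold change was -0.24. Cav1, the main protein of caveolae, had 39.2 ± 16.1 FPKM in the knockout and 50.4 ± 27.1 FPKM in wild type (SD, n = 3 each). The lipoprotein receptor Scarb1 had 46.9 ± 4.82 FPKM in the knockout and 48.4 ± 7.05 FPKM in wild type, and the lysosomal membrane protein gene Scarb2 had 27.9 ± 10.5 FPKM in the knockout and 36.8 ± 3.12 FPKM in wild type. Mfsd2a, a transporter of lysophospholipid-bound fatty acids, had 4.08 ± 4.10 FPKM in the knockout and 1.65 ± 1.03 FPKM in wild type, and its log2 fold change of 0.74 was 0.12 without knockout replicate 3.

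Among other binding proteins (15 listed), 0 of 7 tested genes were called and the median log2 fold change was -0.13. Fabp5, the epidermal form, had 22.2, 24.1 and 32.5 FPKM in knockout replicates 1, 2 and 3, against 23.9, 24.6 and 24.9 FPKM in wild-type replicates 1, 2 and 3. Fabp5 thus stayed within a narrow range where Fabp3 varied 6.32 times, and Fabp3 was 7.26 to 33.7 times as high. Dbi, which binds acyl-CoA, had 209.6 ± 33.2 FPKM in the knockout and 247 ± 26.0 FPKM in wild type (SD, n = 3 each). Acbd3 had 16.9 ± 4.71 FPKM in the knockout and 19.6 ± 2.46 FPKM in wild type.

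Of the other acyl-CoA synthetases, 8 of 12 were tested, 0 were called, and the median log2 fold change was 0.05. Acsl4, which prefers arachidonate, had 37.1, 33.8 and 27.7 FPKM in knockout replicates 1, 2 and 3, against 33.6, 38.7 and 31.3 FPKM in wild-type replicates 1, 2 and 3. Acsl1 exceeded it in 5 of the 6 libraries, with a ratio from 0.734 in wild-type replicate 1 to 7.18 in knockout replicate 3. The acetate-activating Acss1 had 15.1 ± 3.99 FPKM in the knockout and 11.03 ± 4.30 FPKM in wild type (SD, n = 3 each), Aacs had 11.8 ± 8.33 FPKM in the knockout and 9.14 ± 2.04 FPKM in wild type, and Acsf2 had 1.17 ± 0.536 FPKM in the knockout and 1.59 ± 0.187 FPKM in wild type.

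PPAR and RXR receptors and their cofactors made up the last list of 14 genes, with 0 of 9 tested genes called and a median log2 fold change of -0.07. Ppard was the most abundant PPAR gene, with 16.1 ± 0.645 FPKM in the knockout and 15.0 ± 5.33 FPKM in wild type (SD, n = 3 each). Pparg, known as the PPAR of adipocytes, had 1.33, 1.19 and 1.28 FPKM in knockout replicates 1, 2 and 3, against 0.776, 1.59 and 0.765 FPKM in wild-type replicates 1, 2 and 3. Rxrb had 5.14 ± 0.572 FPKM in the knockout and 7.10 ± 1.55 FPKM in wild type, and Nr1h2, a liver X receptor gene, had 15.9 ± 4.07 FPKM in the knockout and 21.1 ± 5.49 FPKM in wild type. Over the 5 lists, 49 genes were tested, 0 were called after adjustment, and 2 (Apoc1 and Vldlr, both lower in the knockout) had an unadjusted p under 0.05 in limma. Vldlr, Rxrb and the synthetase gene Acsf3 were lower in every knockout library than in every wild-type library, beside 3.83% of all genes tested.

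**Figure D4:**
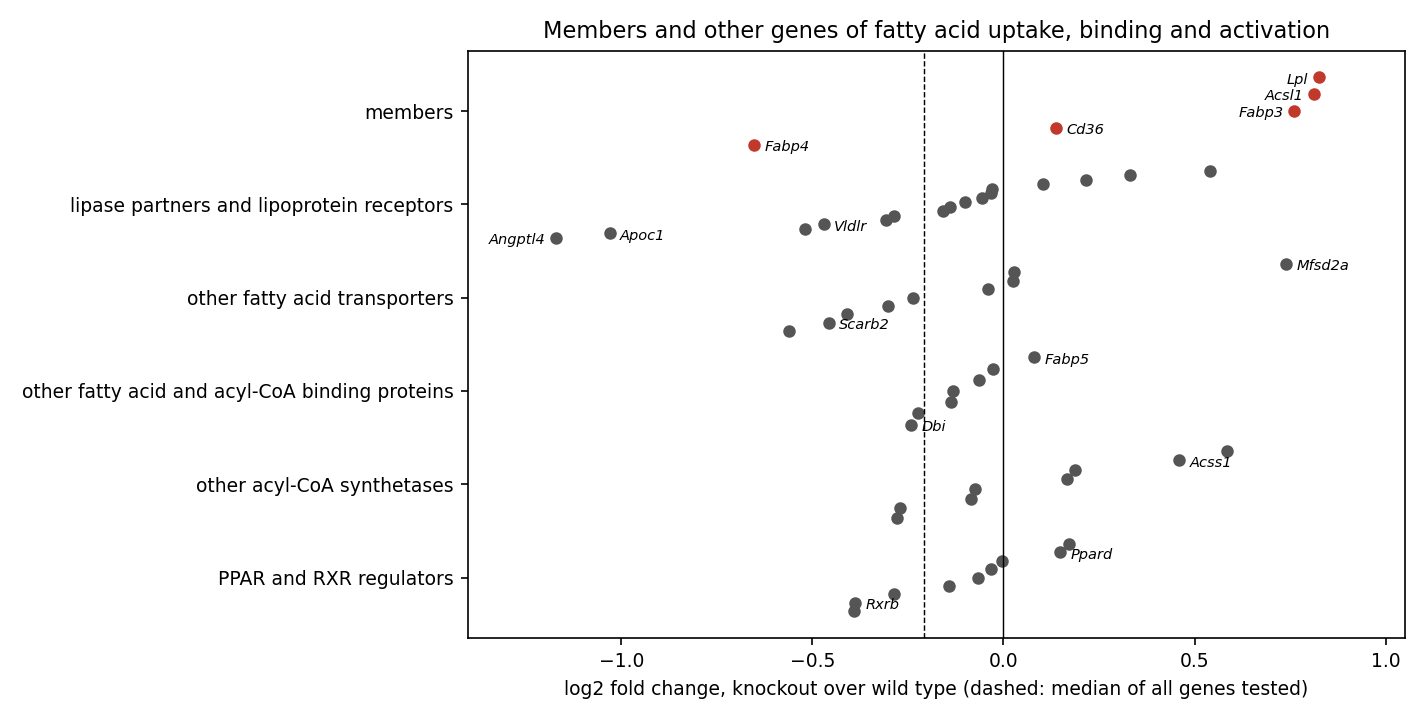
Log2 fold changes, knockout over wild type, of the 5 members (red) and of the tested genes of 5 lists of the same route (dark grey), with 0 as a solid line and the median of all genes tested (-0.21) as a dashed line. Lpl, Acsl1 and Fabp3 lie at the high end and Fabp4, Angptl4 and Apoc1 at the low end; none passed the adjusted threshold.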

How the data were processed

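RNA-seq libraries of 6 mice, 3 per genotype, were analysed from 1 table of FPKM values that the authors deposited, with libraries in rows and 17739 gene symbols in columns. Per the submitters' processing notes, FastQC, TopHat, SAMtools and Cufflinks were used with the builds mm10 and GRCm38; the notes name no version, parameter or annotation. Read counts cannot be had from FPKM, so the absolute depth is unknown and precision comes from the spread between mice. Relative depth, estimated from the most frequent ratio of genes under 0.1 FPKM, lay between 0.976 (wild-type replicate 2) and 1.13 (knockout replicate 2) of wild-type replicate 1, in a search limited to ratios near 1. Gapdh was listed at 0 to 0.0769 FPKM, so an entry at 0 can be a failed estimate.

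The 9767 genes that reached 1 FPKM in 3 or more libraries were tested on log2(FPKM + 1), a scale that understates changes of low genes, with limma 3.58.1 in R 4.3.3 (empirical Bayes with an intensity trend, two-sided, Benjamini-Hochberg adjustment, threshold 0.05). The fit was checked on simulated data with independent noise, less of it than in these mice, and no milk share gradient. That check does not show the power or error rate here. Single genes, ratios and correlations were tested with two-sided exact permutation tests in Python 3.11.15. Replicate numbers only name the mice, but nothing tells whether they shared a litter or day. The members and the gene lists were chosen with earlier results of these data known. The rule named, per list, the 3 genes with the highest mean and the 2 with the smallest p. For markers it named the 2 with the highest mean. Others, among them Gpihbp1, Apoc2, Pparg, Epcam and Elf5, were chosen with their values seen. So were the ratios to Cdh5, Krt8 and Krt18, the ratio to Angptl4 and the comparison with Cldn5. A gene that the rule named is not reported here. Coordinates came from GENCODE mouse release 21 (GRCm38), promoter windows from RefSeq (GRCm38.p6). The alternatives were other pseudocounts, filters, scalings, library weights, a milk share covariate and left-out libraries.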

Additional observations from a re-analysis of the deposited data

How the results depend on the processing

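Pseudocounts of 0.1 and 0.5, both other filters, and the 3 other scalings kept the direction of all 5 genes and left them short of the threshold. Over all genes the median log2 difference, -0.21 as deposited, was 0.0034 after trimmed-mean rescaling, -0.01 after quantile normalization and -0.03 after scaling outside the milk proteins. The log2 fold changes of 4 genes turned with the milk share as a covariate (Lpl -0.11, Fabp3 -0.088, Fabp4 0.068, Acsl1 -0.084) and without both knockout replicate 3 and wild-type replicate 1 (Lpl -0.20, Fabp3 -0.18, Fabp4 0.068, Acsl1 -0.26). Each of these values was smaller than its standard error, which ran from 0.24 to 0.42. Leaving out 1 library gave 0.31 to 1.39 for Lpl, 0.06 to 0.19 for Cd36, 0.18 to 1.24 for Fabp3, -1.13 to -0.28 for Fabp4 and 0.16 to 1.19 for Acsl1. Library weights estimated by limma's REML method passed Lpl (0.57), Fabp3 (0.77) and Fabp4 (-0.90), but that estimate did not converge: it put weights of 39.2 on knockout replicate 1 and 27.6 on wild-type replicate 2 and under 0.27 on the other 4, so it compared 2 libraries, and it called 7740 genes. A gene-by-gene weighting, chosen after seeing the data, called 2 genes, none of the 5 among them, with log2 fold changes of 0.55 for Lpl, 0.078 for Cd36, 0.65 for Fabp3, -0.72 for Fabp4 and 0.18 for Acsl1.

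The count of 0 genes called was 1 without both end libraries and 0 without any single library. The count at an unadjusted p under 0.05, 130 with all libraries, was 326 without a filter, 51 with a filter at 5 FPKM, 7852 and 1142 with the REML and gene-by-gene weights, 68 without both end libraries, and 25 (without wild-type replicate 1) to 1168 (without knockout replicate 2) when 1 library was left out. Of these genes 13.8% were higher in the knockout as deposited, 55.7% after trimmed-mean rescaling, 48.6% after quantile normalization, 42.0% after scaling outside the milk proteins, 65.0% with the milk share covariate and 40.2% without a filter.

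The log2 difference of ratios between genotypes turned without both end libraries for Lpl/Cd36 (-0.31), Lpl/Fabp3 (-0.019), Lpl/Fabp4 (-0.27), Cd36/Fabp3 (0.30), Cd36/Acsl1 (0.38), Fabp3/Fabp4 (-0.25), Fabp3/Acsl1 (0.080) and Fabp4/Acsl1 (0.33). When 1 library was left out it ran from -0.088 to 0.17 for Lpl/Fabp3, -0.32 to 0.20 for Lpl/Acsl1, -1.16 to 0.010 for Cd36/Fabp3 and -0.45 to 0.24 for Fabp3/Acsl1, and kept its sign for the other 6. The cause of these turns was not tested. No paired analysis was possible because the mice of both genotypes share no number in the labels.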

Other observations

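Acss2 and Aacs were highest in knockout replicate 3, the library with the most Lpl, Fabp3 and Acsl1; Acss2 and Slc27a1 are named after their values were seen. Acss2, which makes acetyl-CoA from acetate, had 6.81, 2.34 and 15.0 FPKM in knockout replicates 1, 2 and 3, against 3.22, 3.30 and 5.81 FPKM in wild-type replicates 1, 2 and 3. Aacs, which activates acetoacetate, had 7.93, 6.09 and 21.4 FPKM in knockout replicates 1, 2 and 3, against 8.60, 7.42 and 11.4 FPKM in wild-type replicates 1, 2 and 3. Slc27a1, a fatty acid transport protein gene, was lowest in that library, with 21.3, 20.1 and 4.19 FPKM in knockout replicates 1, 2 and 3, against 16.5, 26.0 and 15.6 FPKM in wild-type replicates 1, 2 and 3. The genotypes overlapped for all 3 of these genes, and none passed the adjusted threshold in limma.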
